A study of Homo sapiens with 6 samples.

Results

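Transcript levels of 51 genes for histone methylation, polycomb complexes, the SWI/SNF chromatin remodeller and DNA methylation were compared between C4-2B (parental) and RC4-2B cells. The genes were chosen by name, and each matched exactly 1 row of a table of read counts for 58735 genes. C4-2B is an established line of human prostate cancer cells that grow without androgen. RC4-2B is its subclone resistant to cabazitaxel (CBZ), a taxane that blocks microtubule disassembly, and was selected from C4-2B in 72 h cycles of CBZ whose concentration rose from 0.1 nM to 20 nM over 4 months. RNAseq was done on 3 libraries of each line, labelled as biological replicates, after 72 h of culture in medium with 10% serum. RC4-2B is 1 resistant subclone, so the effect of resistance and the particular history of this subclone cannot be told apart. The RNA is of bulk cultures, in which a gene used by fewer cells and a gene used less per cell cannot be told apart either.

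Polycomb repressive complex 2 (PRC2) methylates histone H3 at lysine 27, a mark of repressed genes, and polycomb repressive complex 1 (PRC1) ubiquitinates histone H2A and compacts chromatin. Trithorax-type enzymes methylate H3 at lysine 4 at promoters and enhancers, demethylases remove such marks, and SWI/SNF complexes move nucleosomes with energy from ATP. EZH2, the catalytic subunit of PRC2, is known for high levels in advanced prostate cancer, and KMT2C, KMT2D and ARID1A are among the chromatin genes found mutated in that disease.

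The libraries held 15707134 to 18052517 counts on genes, of which the 51 genes made up 0.416% to 0.477%. Levels are given as CPM, the counts of a gene relative to a fixed library size, scaled by TMM, and 3 counts corresponded to 0.170 to 0.188 CPM. The labels were checked on ABCB1, the drug efflux pump of taxane-resistant cells, which had 0, 1 and 0 counts in C4-2B and 10742, 15948 and 13179 counts in RC4-2B. All 8 prostate luminal markers examined were expressed in both lines, whereas none of the 3 basal and none of the 3 immune markers had enough counts to be tested. RC4-2B replicate 2 stood apart from the other libraries: the SD over genes of the log2 difference between 2 libraries was 0.585 and 0.509 for the pairs with it, 0.207 for RC4-2B replicates 1 and 3, and 0.123 to 0.187 within C4-2B. Log2 fold changes are therefore given with all 6 libraries and without RC4-2B replicate 2.

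All 51 genes had enough counts to be tested, with at least 54 counts in each library and mean levels from 4.90 to 335.1 CPM. With all 6 libraries, none of the 51 differed between the lines at an adjusted p-value under 0.05 (edgeR, adjusted over the 15054 genes tested), against 1.98% of all tested genes. By the unadjusted p-value, 10 of the 51 genes were under 0.05, compared with 21.4% of all tested genes. DESeq2, the tool named in the study's methods, called KMT2C and SMARCE1 higher and DNMT3A lower in RC4-2B, against a background of 5.93% of genes called, and limma on the FPKM values called none of the 49 genes that passed its filter. The differences were small. The log2 fold changes of RC4-2B over C4-2B lay between -0.66 for DNMT3A and 0.63 for SMARCE1, that is, no more than 1.55-fold higher or 1.58-fold lower. For 48 of the 51 genes the 95% interval of the log2 fold change lay within -1 to 1, so that a change of that size or more lay outside the interval. The exceptions were KMT2B, DNMT3A and SUZ12. The median log2 fold change was 0.08 over the 51 genes (0.06 without RC4-2B replicate 2) and 0.01 over all tested genes, and the median of its absolute value was 0.22 and 0.26. The plot of the log2 fold changes with their intervals gives all 51 genes in order.

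**Figure D1:**
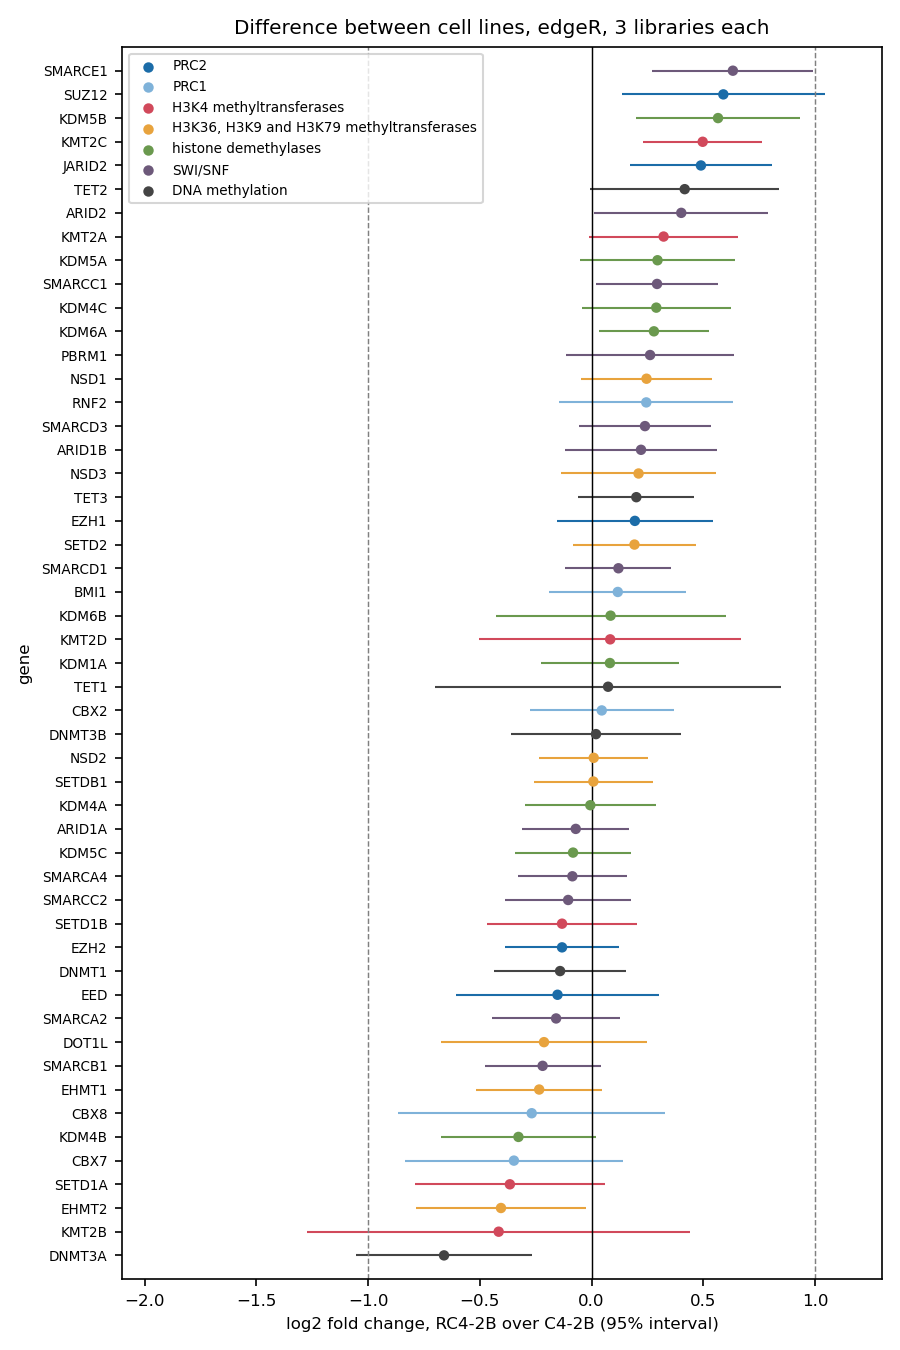
Log2 fold change of RC4-2B over C4-2B for the 51 genes (horizontal axis, no unit), estimated by edgeR from 3 libraries of each line, with lines for the 95% interval, colours for the role of the gene and dashed lines at -1 and 1. The estimates run from -0.66 for DNMT3A to 0.63 for SMARCE1, 31 lie above 0 and 20 below, and the intervals of 48 genes stay between the dashed lines.

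Without RC4-2B replicate 2, edgeR called 8 of the 51 genes, against a background of 12.5% of all tested genes. SUZ12, JARID2, KMT2C, KMT2D, KDM5B, KDM6B and SMARCE1 were higher and DNMT3A was lower in RC4-2B. DESeq2 run on the same 5 libraries called the same 8 genes in the same directions, against 12.3% of all tested genes. The share of the 51 genes that was called, 15.7% by either tool, was close to the background, so these calls describe single genes and nothing that set the 51 genes apart. In 5 of these 8 genes, SUZ12, JARID2, KMT2C, KDM5B and SMARCE1, all 3 RC4-2B libraries lay above all 3 C4-2B libraries, and in DNMT3A all 3 lay below. In KMT2D and KDM6B, RC4-2B replicate 2 was the lowest of the 6 libraries while RC4-2B replicates 1 and 3 were the highest. Over the 51 genes, the libraries of the lines did not overlap in 9 genes that were higher in RC4-2B, against 17% of all tested genes, and in 6 that were lower, against 17.1%.

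**Figure D2:**
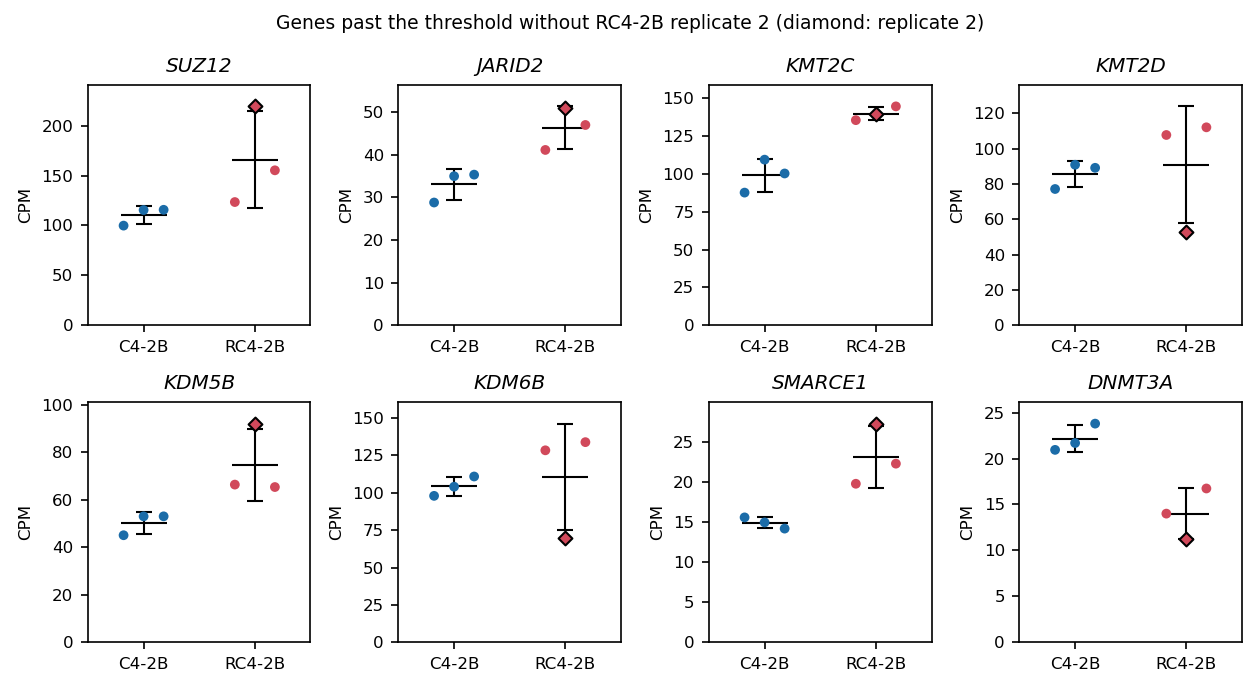
CPM (vertical axes, from 0) of the 8 genes that edgeR called without RC4-2B replicate 2, with 1 point per library, bars for the mean and the SD of 3 libraries, and a diamond for RC4-2B replicate 2. The diamond is the highest point for SUZ12, JARID2, KDM5B and SMARCE1, the lowest for KMT2D, KDM6B and DNMT3A, and lies between the other RC4-2B libraries for KMT2C.

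PRC2 was represented by its catalytic subunits EZH1 and EZH2, the core subunits EED and SUZ12, and JARID2, an accessory subunit that helps to bring the complex to chromatin. EZH2 was at 89.1, 88.6 and 77.6 CPM in C4-2B and at 74.9, 76.7 and 81.3 CPM in RC4-2B. The ranges overlapped, and the log2 fold change was -0.13 with a 95% interval from -0.39 to 0.12, and -0.12 without replicate 2. EZH1 had a log2 fold change of 0.19 (0.25 without replicate 2) and EED of -0.15 (0.05 without it). Neither reached the threshold in any of these fits. SUZ12 was at 99.8, 115.4 and 115.7 CPM in C4-2B and at 123.4, 219.4 and 155.3 CPM in RC4-2B. All 3 RC4-2B libraries were higher, but replicate 2 lay far above the other 2, and the log2 fold change was 0.59 (SE 0.20, adjusted p = 0.16 by edgeR). Without that library it was 0.34 (SE 0.10, adjusted p = 0.045 by edgeR), past the threshold. JARID2 had 28.8, 34.9 and 35.3 CPM in C4-2B and 41.1, 50.97 and 46.9 CPM in RC4-2B. Again the groups did not overlap, and the log2 fold change was 0.49 (SE 0.14, adjusted p = 0.11 by edgeR) with all libraries and 0.42 (SE 0.11, adjusted p = 0.024) without replicate 2. SUZ12 has copies of part of its sequence elsewhere in the genome, and how reads that fit several places were counted is not given in the sources used here.

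PRC1 was represented by the ubiquitin ligase RNF2, its partner BMI1 and the chromobox proteins CBX2, CBX7 and CBX8, which read H3K27 methylation. Their log2 fold changes ran from -0.35 for CBX7 to 0.25 for RNF2 (-0.13 and 0.06 without replicate 2), and none of the 5 passed the threshold in any fit given here or had an unadjusted p under 0.05 in edgeR on all libraries. CBX7 was at 24.3, 24.2 and 24.3 CPM in C4-2B and at 23.5, 12.8 and 20.9 CPM in RC4-2B. The C4-2B libraries were almost equal and all RC4-2B libraries lay lower, with replicate 2 the lowest (log2 fold change -0.35, SE 0.21, adjusted p = 0.35 by edgeR, and -0.13 without replicate 2). CBX2 was at 82.2, 76.4 and 86.8 CPM in C4-2B and at 89.7, 69.2 and 94.5 CPM in RC4-2B, where replicate 2 again was the lowest of the 6 libraries, and its log2 fold change was 0.05 with that library and 0.17 without it.

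Of the 6 enzymes that methylate H3 at lysine 4, 3 had a log2 fold change above 0 and 3 below. Their median was -0.02 with all libraries, 0.12 without replicate 2 and 0.22 with a correction for GC content described below. KMT2C, which encodes a monomethyltransferase of enhancers, was at 87.7, 109.5 and 100.4 CPM in C4-2B and at 135.6, 139.7 and 144.8 CPM in RC4-2B. Every RC4-2B library was higher than every C4-2B library, and replicate 2 lay between the other 2. The log2 fold change was 0.50 with all libraries and 0.50 without replicate 2. Its adjusted p was 0.071 (edgeR) and 0.021 (DESeq2) with all libraries and 0.0036 (edgeR) without replicate 2. KMT2C also has partial copies elsewhere in the genome, with the same uncertainty as for SUZ12. KMT2D, its closest relative, was at 77.1, 90.9 and 89.1 CPM in C4-2B and at 107.7, 52.7 and 112.1 CPM in RC4-2B. With replicate 2 far below the rest, the log2 fold change was 0.08 (SE 0.26, adjusted p = 0.86 by edgeR), and without it 0.36 (SE 0.09, adjusted p = 0.019). KMT2B, a methyltransferase of promoters, was at 50.9, 62.6 and 60.6 CPM in C4-2B and at 56.4, 17.4 and 56.8 CPM in RC4-2B. It showed the largest shortfall in replicate 2, with 305 counts there and 853 to 1106 counts in the other 5 libraries. Its log2 fold change of -0.42 (SE 0.38, adjusted p = 0.51 by edgeR) shrank to -0.04 without that library. SETD1A, a subunit of the SET1 complexes, was at 77.5, 79.8 and 73.3 CPM in C4-2B and at 69.7, 42.3 and 67.0 CPM in RC4-2B (log2 fold change -0.37, SE 0.19, adjusted p = 0.28 by edgeR). It was -0.17 without replicate 2 and -0.02 with the GC correction.

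Among the 8 methyltransferases of H3 lysines 36, 9 and 79, none passed the threshold in any fit given here, 1 had an unadjusted p under 0.05 in edgeR on all libraries, and the median log2 fold change was 0.009 (-0.0043 without replicate 2). EHMT2 (G9a), which dimethylates lysine 9, was at 93.8, 95.5 and 96.7 CPM in C4-2B and at 82.2, 53.6 and 80.2 CPM in RC4-2B. All RC4-2B libraries were lower, and the log2 fold change was -0.41 (SE 0.17, adjusted p = 0.21 by edgeR) with replicate 2 and -0.23 (adjusted p = 0.081) without it. With the GC correction, EHMT2 was at -0.10 (adjusted p = 0.48 by edgeR). Its partner EHMT1 had a log2 fold change of -0.23 (-0.14 without replicate 2) with groups that did not overlap either. NSD2, a lysine 36 dimethyltransferase, had a log2 fold change of 0.01 with a 95% interval from -0.23 to 0.25, and -0.01 without replicate 2. SETD2, which trimethylates lysine 36, had 0.19, and DOT1L, the lysine 79 methyltransferase, had -0.21 (adjusted p = 0.36 and 0.53 by edgeR). Without replicate 2 these were 0.13 and 0.01.

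The histone demethylases held 2 of the genes called without replicate 2. KDM5B, which removes H3 lysine 4 methylation, was at 45.1, 53.1 and 53.1 CPM in C4-2B and at 66.4, 92.1 and 65.4 CPM in RC4-2B. The groups did not overlap, with a log2 fold change of 0.57 (SE 0.16, adjusted p = 0.11 by edgeR) and of 0.39 (SE 0.10, adjusted p = 0.016) without replicate 2. KDM6B, which removes the H3K27 methylation made by PRC2, was at 97.8, 104.0 and 110.8 CPM in C4-2B and at 128.3, 69.7 and 133.7 CPM in RC4-2B. Its log2 fold change was 0.09 (SE 0.23, adjusted p = 0.83 by edgeR) with replicate 2 and 0.33 (SE 0.08, adjusted p = 0.019) without it. KDM6A, the X-linked enzyme of the same activity, was at 220.4, 242.3 and 234.3 CPM in C4-2B and at 268.7, 312.9 and 264.3 CPM in RC4-2B. The RC4-2B libraries were all higher, but the gene did not pass the threshold with replicate 2 (log2 fold change 0.28, adjusted p = 0.20 by edgeR) or without it (0.20, adjusted p = 0.11). With the GC correction, KDM6A was at 0.08 (adjusted p = 0.63 by edgeR). KDM1A (LSD1), the first known histone demethylase and a coregulator of nuclear receptors, had a log2 fold change of 0.08 with a 95% interval from -0.23 to 0.39, and -0.07 without replicate 2.

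The 12 SWI/SNF genes had a median log2 fold change of 0.17, which was 0.08 without replicate 2, and 7 were above 0 and 5 below with all libraries. SMARCE1 (BAF57), a DNA-binding subunit of BAF and PBAF complexes, was at 15.6, 14.9 and 14.2 CPM in C4-2B and at 19.8, 27.2 and 22.3 CPM in RC4-2B. The groups did not overlap. Its log2 fold change was 0.63 (SE 0.16, adjusted p = 0.081 by edgeR, 0.028 by DESeq2) with all libraries and 0.50 (SE 0.12, adjusted p = 0.015 by edgeR) without replicate 2. SMARCC1 (BAF155), a core subunit, was at 150.9, 165.5 and 163.9 CPM in C4-2B and at 176.4, 223.5 and 188.7 CPM in RC4-2B. Although the RC4-2B libraries were all higher, the log2 fold change was 0.29 (adjusted p = 0.21 by edgeR) with replicate 2 and 0.19 (adjusted p = 0.14) without it. For the ATPases SMARCA4 (BRG1) and SMARCA2 (BRM), the log2 fold changes were -0.09 and -0.16 (-0.02 and -0.26 without replicate 2). The core subunit SMARCB1 had -0.22 (-0.17 without it), and the subunits that define BAF or PBAF complexes had -0.07 (ARID1A), 0.22 (ARID1B), 0.40 (ARID2) and 0.26 (PBRM1). Without replicate 2 these were -0.03, 0.07, 0.21 and 0.08. None of these 7 genes passed the threshold with or without replicate 2. SMARCA2 at -0.31 (adjusted p = 0.037) and SMARCD3 at 0.32 (adjusted p = 0.047) were past it in edgeR only when replicate 2 was left out and the GC correction was made in the same fit.

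The genes of DNA methylation comprised the maintenance enzyme DNMT1, the de novo enzymes DNMT3A and DNMT3B, and the TET dioxygenases. DNMT3A was at 20.9, 21.7 and 23.8 CPM in C4-2B and at 14.01, 11.3 and 16.7 CPM in RC4-2B. All 3 RC4-2B libraries were lower, and the log2 fold change was -0.66 (SE 0.17, adjusted p = 0.092 by edgeR, 0.022 by DESeq2) with all libraries and -0.52 (SE 0.13, adjusted p = 0.014 by edgeR) without replicate 2. The other de novo enzyme, DNMT3B, was at 20.0, 22.03 and 21.7 CPM in C4-2B and at 26.0, 21.1 and 17.6 CPM in RC4-2B, with overlapping ranges and a log2 fold change of 0.02 (0.03 without replicate 2). DNMT1 was at 350.8, 366.3 and 337.2 CPM in C4-2B and at 324.9, 265.7 and 365.8 CPM in RC4-2B, and its log2 fold change was -0.14 with a 95% interval from -0.44 to 0.15, and -0.03 without replicate 2. TET1, TET2 and TET3, which oxidise methylcytosine, had log2 fold changes of 0.07, 0.42 and 0.20, and of -0.39, 0.25 and 0.23 without replicate 2. None of the 3 passed the threshold. TET1 had the fewest counts of the 51 genes, from 54 to 136 per library, and its 95% interval ran from -0.70 to 0.85.

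**Figure D3:**
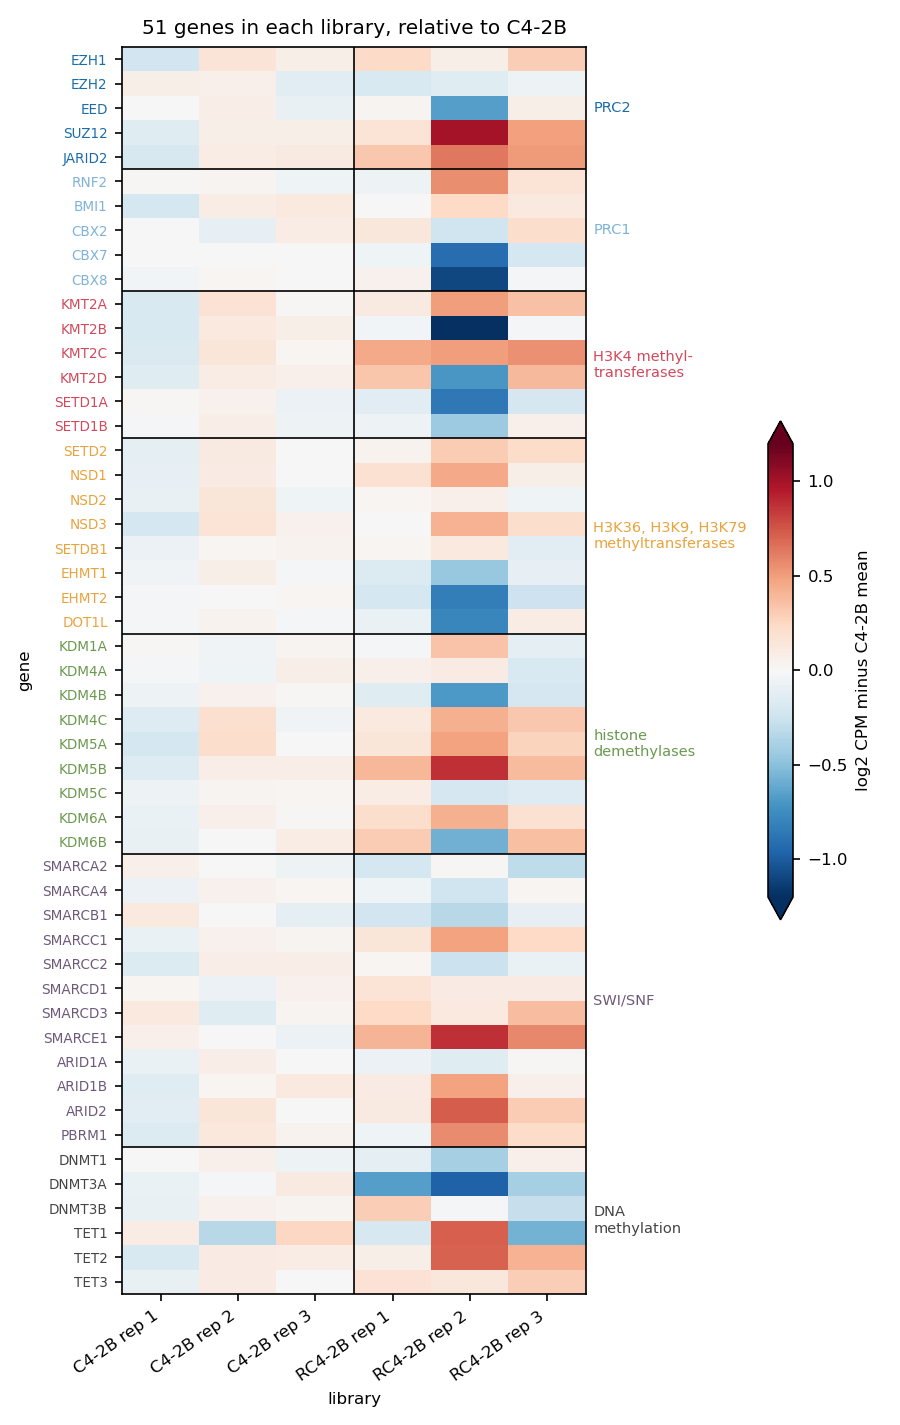
Log2 CPM of the 51 genes (rows, in 7 role groups) in the 6 libraries (columns), as the difference from the mean of the 3 C4-2B libraries, in red where higher and blue where lower. KMT2C, JARID2 and SMARCE1 are red in all 3 RC4-2B libraries and DNMT3A is blue in all 3, whereas KMT2D and KDM6B are red in RC4-2B replicates 1 and 3 and blue in replicate 2.

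The 3 genes called by DESeq2 on all libraries lie on the minus strand of GRCh38, KMT2C (ENSG00000055609) at chr7:152134922-152436005, SMARCE1 (ENSG00000073584) at chr17:40624962-40648864 and DNMT3A (ENSG00000119772) at chr2:25227855-25342590. The 250 bases before their start sites are printed 5′ to 3′ on the strand of the gene, as given by RefSeq for GRCh38.p14, with each CG, the dinucleotide that DNMT3A methylates, in capitals. The windows printed differ in CG content, and CG reads the same on both strands. The KMT2C window is chr7:152436004-152436253. The SMARCE1 window is chr17:40647819-40648068, which lies inside the span of the gene given above. DNMT3A has 6 start sites in the RefSeq table, and the windows of the farthest upstream, chr2:25342591-25342840, and the farthest downstream, chr2:25252132-25252381, are shown because a count per gene does not tell its transcripts apart.
KMT2C: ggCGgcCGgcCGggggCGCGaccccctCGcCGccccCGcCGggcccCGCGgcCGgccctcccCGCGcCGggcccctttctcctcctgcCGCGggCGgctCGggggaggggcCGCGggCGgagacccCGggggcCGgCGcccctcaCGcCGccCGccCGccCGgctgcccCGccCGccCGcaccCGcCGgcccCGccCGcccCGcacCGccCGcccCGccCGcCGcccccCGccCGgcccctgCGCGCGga
SMARCE1: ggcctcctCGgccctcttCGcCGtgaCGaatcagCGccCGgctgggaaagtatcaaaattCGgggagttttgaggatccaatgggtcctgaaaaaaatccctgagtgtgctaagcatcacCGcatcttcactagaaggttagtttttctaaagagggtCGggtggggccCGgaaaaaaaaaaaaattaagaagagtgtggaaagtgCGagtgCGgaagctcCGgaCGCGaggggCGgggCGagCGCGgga
DNMT3A, upstream start: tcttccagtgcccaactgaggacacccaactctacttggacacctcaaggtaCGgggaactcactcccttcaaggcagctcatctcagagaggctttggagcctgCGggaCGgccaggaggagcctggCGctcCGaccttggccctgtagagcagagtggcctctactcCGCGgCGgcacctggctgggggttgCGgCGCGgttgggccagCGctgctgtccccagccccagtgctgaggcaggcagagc
DNMT3A, downstream start: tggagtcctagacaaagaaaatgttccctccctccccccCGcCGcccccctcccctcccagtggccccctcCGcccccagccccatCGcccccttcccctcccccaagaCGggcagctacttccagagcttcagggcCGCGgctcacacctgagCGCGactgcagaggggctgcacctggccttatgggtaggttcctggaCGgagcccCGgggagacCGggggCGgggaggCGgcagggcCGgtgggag
The KMT2C window holds 48 CG and is 92.0% G or C, and only 0.262% of 35116 windows of the same length in the table held as many. The SMARCE1 window holds 19 CG (34.6% of windows hold as many), and the DNMT3A windows hold 12 upstream (48.5%) and 15 downstream (42.9%). Promoters of 43 of the 51 genes were in the table, and their windows held a median of 23 CG, against 11 over all windows. These are descriptions of sequence, and neither methylation nor binding was measured at these sites.

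The departure of RC4-2B replicate 2 followed the base composition of the transcripts. It was the highest of the 6 libraries for 22 of the 51 genes and the lowest for 20, so that it was at an end of the range for 42, and it was at an end for 70.7% of all tested genes. Of the 16 genes whose longest transcript had under 45% GC, it was the highest library for 13, and of the 15 genes over 55% GC it was the lowest for all 15. The median log2 difference between replicate 2 and the mean of RC4-2B replicates 1 and 3 was 0.35 for the first class and -0.60 for the second. Over all tested genes these medians were 0.31 and -0.62, so the 51 genes were typical of the library in this respect. Across the 51 genes, this difference had a Pearson r of -0.72 and a Spearman rho of -0.77 with GC content, as a description over genes that share 1 set of libraries. EED went against the trend, with a GC content under 40% and a log2 difference of -0.71. The log2 fold change between the lines also ran with GC content, with a rho of -0.62 for all libraries and -0.32 without replicate 2.

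**Figure D4:**
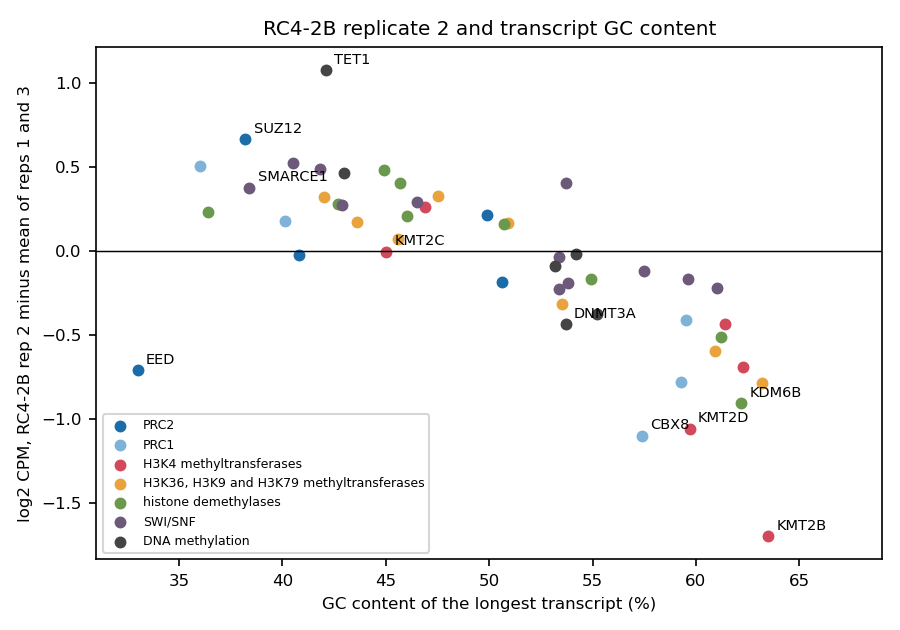
GC content of the longest transcript (horizontal axis, %) against the log2 CPM of RC4-2B replicate 2 minus the mean of RC4-2B replicates 1 and 3 (vertical axis), with 1 point per gene coloured by role. All 15 genes over 55% GC lie below 0, KMT2B is the lowest point, and EED is the one gene under 40% GC far below 0.

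When the GC trend of each library was smoothed and removed in the edgeR fit, 6 of the 51 genes were called, against 7.62% of all tested genes. JARID2, KMT2C, KDM5B, KDM6B and SMARCE1 were higher and DNMT3A was lower in RC4-2B. With the correction and without replicate 2 together, 9 were called, against 13.3% of all tested genes, and SUZ12 was no longer among them (adjusted p = 0.055 by edgeR) while KMT2D, SMARCD3 and SMARCA2 were added. KMT2C, SMARCE1 and DNMT3A were therefore past the threshold in DESeq2 on all libraries, in both tools without replicate 2 and in edgeR with the GC correction. In edgeR on all 6 libraries without the correction, they were under 0.05 only when no filter on low counts was used (adjusted p = 0.034, 0.040 and 0.032). With the replicate number as a block beside the GC correction, KMT2C and SMARCE1 were not (adjusted p = 0.056 and 0.069 by edgeR). GC content moved with the departure of replicate 2, and its cause was not tested.

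Per length of gene, by the deposited FPKM values, KDM6A was the most abundant of the 51 genes, with a mean of 32.6 FPKM over the 6 libraries. DNMT1 followed with 30.9, KDM1A with 25.7, SMARCC1 with 21.1, SUZ12 with 19.2 and EZH2 with 16.3. The FPKM ranges of KDM6A and DNMT1 overlapped over the libraries, as did those of SUZ12 and EZH2. The least abundant were TET1 at 0.478 FPKM, SMARCE1 at 0.922, ARID1B at 1.08 and TET2 at 1.21. For PRC2, SUZ12 and EZH2 thus lay well above EED at 3.33 FPKM and EZH1 at 2.501 FPKM, and for the H3K4 enzymes SETD1A was the highest at 9.002 and KMT2A the lowest at 1.52 FPKM. SMARCE1, KMT2A and DNMT1 each overlap another protein-coding gene on the same strand, and how shared reads were assigned is not given. Their places in this order are therefore uncertain.

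**Figure D5:**
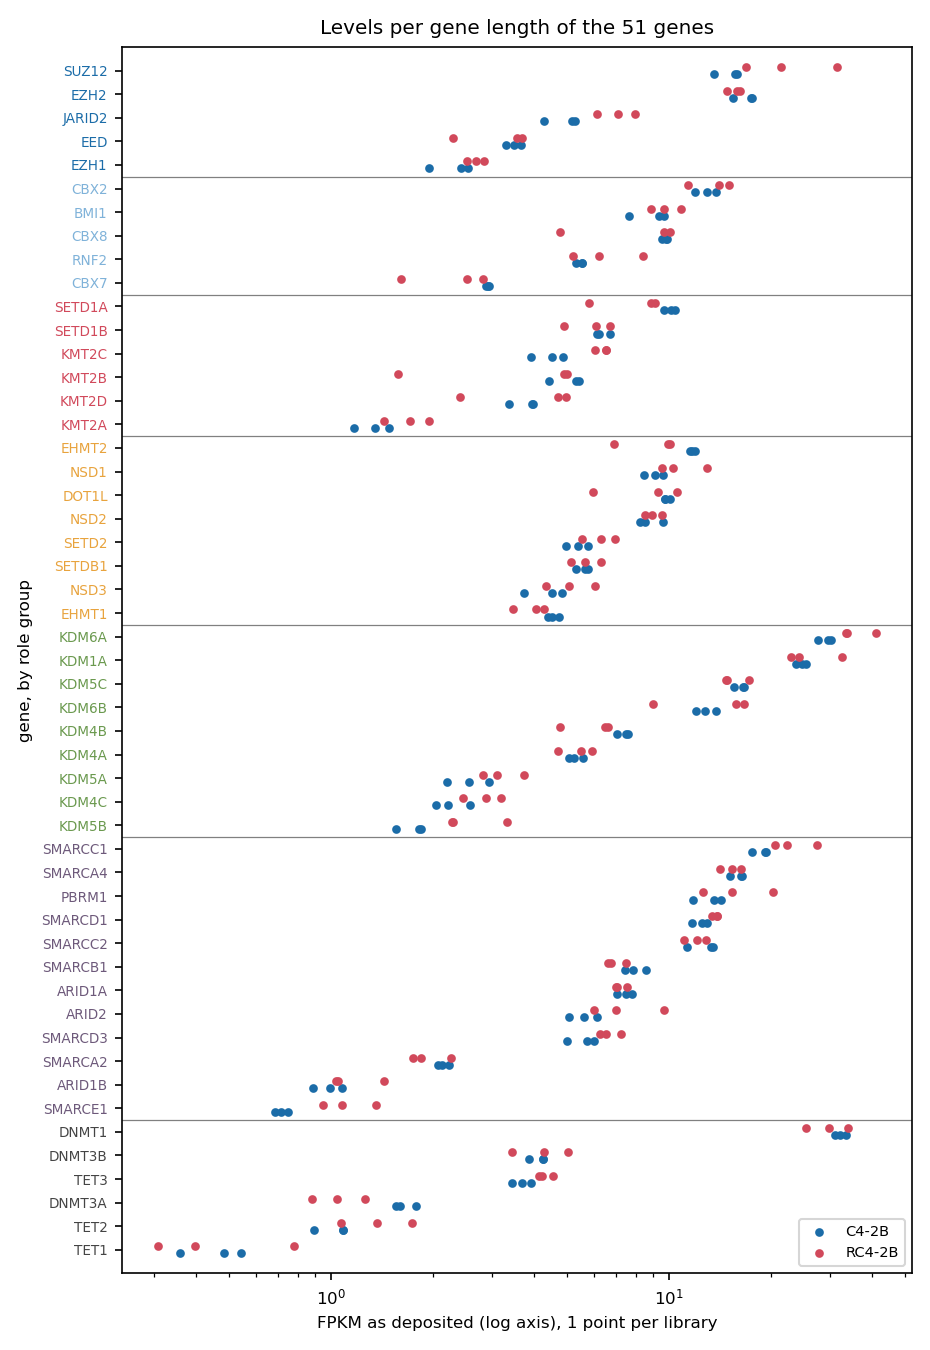
FPKM as deposited (horizontal log axis) of the 51 genes, with 1 point per library, blue for C4-2B and red for RC4-2B, ordered by mean level within each role group. Levels per length run from a mean of 0.478 FPKM for TET1 to 32.6 FPKM for KDM6A, and the points of the lines overlap for most genes.

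The balance within 14 pairs of related subunits was also compared, as the log2 ratio of the FPKM values of both genes in each library, which does not depend on how libraries are scaled. With 3 libraries against 3 the smallest two-sided p of an exact permutation test is 0.1, so no pair could reach 0.05, and 8 of the 14 pairs were at that smallest value (adjusted p = 0.175 over the 14 pairs). That value says only that the libraries of the lines did not overlap, as was so for 17% (higher) and 17.1% (lower) of all single genes tested, and the share over other gene pairs was not computed. EZH2 was 7.32 times as abundant per length as EZH1 in C4-2B and 5.82 times in RC4-2B, a log2 change of -0.33 that was -0.39 without RC4-2B replicate 2 and -0.18 without C4-2B replicate 1. The SMARCC1 to SMARCC2 ratio was 1.48 in C4-2B and 1.94 in RC4-2B, a log2 change of 0.39 that was 0.22 without replicate 2. DNMT3B was 2.49 times as abundant as DNMT3A in C4-2B and 3.99 times in RC4-2B, a log2 change of 0.68 that was 0.54 without replicate 2. The largest change, 0.92 for KMT2A over KMT2B, rested mainly on replicate 2 and was 0.26 without it. The change of -0.49 for KMT2D over KMT2C did so too and was -0.14 without it. The ATPase pair SMARCA4 and SMARCA2, a switch in some cell types, had a ratio of 7.45 in C4-2B and 7.85 in RC4-2B, with an exact permutation p of 0.8 (adjusted p = 0.86), and its log2 change was 0.08, or 0.24 without replicate 2.

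By position, 6 of the 51 genes lie on chromosome 17, namely EZH1, SUZ12, CBX2, CBX8, KDM6B and SMARCE1. Their median log2 fold change was 0.14, beside 0.15 for the 944 tested genes of that chromosome, of which 66.7% were above 0. That chromosome median was 0.22 without replicate 2 and 0.23 after the GC correction, so that a difference of this size was common to the chromosome. Chromosome 18, on which none of the 51 genes lies, had the opposite sign, with a median of -0.18 over 230 tested genes and -0.28 without replicate 2. DNA copy number was not measured.

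Genes that work with the 51 were examined in 4 further lists. Over all tested genes, edgeR called 1.98% and DESeq2 5.93%, and 21.4% had an unadjusted p under 0.05 in edgeR. Of 27 other polycomb genes and 16 other SWI/SNF genes tested, edgeR called none on all libraries, with 4 and 0 at an unadjusted p under 0.05. DESeq2 called 1 and 0, the called gene being RING1, the paralogue of RNF2, which was lower in RC4-2B. The log2 fold change of RING1 was -0.52, and -0.17 with the GC correction (adjusted p = 0.098 and 0.38 by edgeR). Of 35 other histone methylation genes, edgeR called 1 and DESeq2 called 2, and 12 had an unadjusted p under 0.05 in edgeR. The gene called by edgeR was CXXC1, which encodes the CG-binding subunit of the SET1 complexes and lies on chromosome 18. CXXC1 had 1217, 1168 and 1125 counts in C4-2B and 634, 553 and 650 counts in RC4-2B (log2 fold change -0.89, SE 0.13, adjusted p = 0.016 by edgeR, and -0.80 without replicate 2). Of 10 other DNA methylation genes, 1 had an unadjusted p under 0.05 in edgeR, and edgeR and DESeq2 each called 1. In each case this was MBD1, a reader of methylated CG that also lies on chromosome 18. It had 1135, 1201 and 1118 counts in C4-2B and 710, 665 and 731 counts in RC4-2B (log2 fold change -0.67, SE 0.11, adjusted p = 0.028 by edgeR, and -0.61 without replicate 2). Both genes were named because they were called, so a fall beyond the chromosome's median tells nothing further about them. Replicate 2 was the lowest library in both, at 31.5 CPM beside 39.7 and 38.2 CPM in RC4-2B replicates 1 and 3 for CXXC1. For MBD1 it was at 37.9 CPM beside 44.4 and 42.9 CPM. With the GC correction, the log2 fold changes of CXXC1 and MBD1 were -0.61 and -0.61 (adjusted p = 0.0076 and 0.0027 by edgeR).

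GSTP1 and PTGS2, which are often methylated in prostate cancer, had 0 counts in all 6 libraries.

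Other markers that could bear on the comparison were as follows. Of 18 proliferation genes, 1 was called, TOP2A, which lies on chromosome 17 and was higher in RC4-2B (log2 fold change 0.84, adjusted p = 0.018 by edgeR, and 0.73 without replicate 2). The summed level of the 18 genes was 4049 to 4549 CPM in C4-2B and 4533 to 4686 CPM in RC4-2B. The summed level of the 8 luminal markers was 3743 to 3843 CPM in C4-2B and 2620 to 3229 CPM in RC4-2B, with KLK3 and TMPRSS2 called lower (log2 fold change -4.33 and -1.08, adjusted p = 0.000154 and 0.019 by edgeR, and -4.10 and -0.91 without replicate 2). The neuroendocrine marker INSM1 had 0 counts in all libraries. Of 4 fibroblast markers, DCN and LUM had 0 counts, and the summed level of the list was 21.6 to 25.8 CPM in C4-2B and 24.2 to 38.0 CPM in RC4-2B. COL3A1 had a log2 fold change of 1.69 (adjusted p = 0.051 by edgeR, 0.022 by DESeq2, 0.016 by edgeR without replicate 2) at 0.574 and 1.87 CPM. COL1A1 had 0.30, and 0.45 without replicate 2 (adjusted p = 0.36 and 0.033 by edgeR). Of 3 endothelial markers, PECAM1 had 0 counts, and VWF had a log2 fold change of -0.84 (adjusted p = 0.065 by edgeR, 0.016 by DESeq2, 0.013 by edgeR without replicate 2) at 7.69 and 4.29 CPM. The part of these markers in the levels of the 51 genes was not tested.

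The strand setting of the counting is not given in the sources used here. The spans of 44 of the 51 genes overlap that of another gene in the table, and for 14 this is a protein-coding gene. SMARCE1 shares its strand with an overlapping protein-coding gene of 0 counts in every library, as do KDM4A and BMI1, and KMT2A with one of 0 or 1 count. DNMT1 overlaps S1PR2, which had 51 to 79 counts per library. How reads in shared exons were assigned is not given, so the levels of these 5 genes carry that uncertainty.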

How the data were processed

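RNAseq libraries of C4-2B (3) and RC4-2B (3) were analysed from 2 tables. STAR was used by the authors to map the reads (GRCh38). They deposited a table of raw counts per gene and a table of FPKM, in which those counts are divided by gene length and a library total. The aligner's version, the counting program, its strand setting and the annotation release are not given in the sources used here. The study's methods name both charcoal-stripped and fetal bovine serum, and the labels name 10% fetal bovine serum.

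Samples were grouped by cell line as the labels give it. The 51 genes and all lists were chosen with earlier results of these data known. Values per library are given for genes called by edgeR, DESeq2 or edgeR without RC4-2B replicate 2, for the 3 highest and 3 lowest log2 fold changes, and, per role group, for the highest FPKM and the smallest p-value. Levels of further genes were added for their role. RING1, COL1A1, COL3A1, VWF and the genes of the other observations were named after their values were seen. Some genes that the rule or the lists cover are not reported here.

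Counts were fitted in R 4.3.3 with edgeR 4.0.16 (TMM scaling, filterByExpr with a minimum of 10 counts, glmQLFit and glmQLFTest, cell line as the only term), and p-values were adjusted by Benjamini-Hochberg over 15054 genes, with a threshold of 0.05. The fit was tested on simulated data. Intervals are 95% intervals of the log2 fold change. DESeq2 1.42.0 and limma 3.58.1, the latter on log2(FPKM + 1) or log2(FPKM + 0.1) with an FPKM of at least 1 in 3 libraries or no filter, were alternatives, as were other scalings and filters, a block for the replicate number, fits without each library in turn, and a GC correction. DESeq2 without RC4-2B replicate 2 was added after the data were seen. The GC correction entered a lowess trend (span 0.2) of each library's log2 CPM deviations on the GC content of the longest transcript in GENCODE release 44, known for 99.6% of genes, as an offset, which also removes a mean GC trend between the lines. The labels call the replicates biological without naming separate cultures, so p-values measure the spread between these libraries. All pairs within a line differed by more than sampling noise (chi-square per gene of 3.38 to 65.4).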

Additional observations from a re-analysis of the deposited data

How the results depend on the processing

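The direction of the 16 genes that the rule chose for values per library was kept in all fits except 8 results. EZH2 and DNMT3B, added for their role, are not part of this count. KMT2D ran from -0.10 to 0.36, KDM6B from -0.0775 to 0.33 and CBX2 from -0.0452 to 0.17 (log2 fold change) as each library was left out in turn, and with the GC correction and without RC4-2B replicate 2 together KMT2B was at 0.10 and DNMT1 at 0.0059. As each library was left out, 0 to 7 of the 51 genes were called higher and 0 to 1 lower in RC4-2B by edgeR, and the calls came only when RC4-2B replicate 2 was the one left out. The median over the 51 genes then lay between 0.0067 and 0.1182 on the log2 scale, the lowest without RC4-2B replicate 1. The numbers called higher and lower were 2 and 1 by DESeq2, 7 and 1 by DESeq2 without RC4-2B replicate 2, 4 and 1 without a filter on low counts (where 29109 genes were tested), 5 and 1 with the GC correction, and 7 and 2 with that correction and without RC4-2B replicate 2. In the same order, these fits called 5.93%, 12.3%, 4.29%, 7.62% and 13.3% of all tested genes. RLE or upper-quartile scaling, a mean of at least 10 counts and limma called 0 of the 51 genes. With the replicate number as a replicate block, 0 were called, against 0.857% of all tested genes, and the smallest adjusted p was 0.091 (KMT2C, edgeR). With the block and the GC correction, 3 were called higher (JARID2, KDM5B and KDM6B) and 1 lower (DNMT3A), against 8.01% of all tested genes. Whether the replicate numbers pair the samples was not settled. The correlation of deviations between same-numbered libraries was low, at 0.14, 0.08 and -0.01, and 2 of 6 libraries did not correlate best with their own number. Over all genes, 298 were called in the fit of all libraries, 902 by DESeq2, 1147 with the GC correction, 1925 without RC4-2B replicate 2 and 2050 with both of the latter. The ratios between related genes take the same differences from CPM and FPKM by construction. Depth limited TET1 most, and 3 of the 51 genes differed by more than 1.5-fold in the fit of all libraries without passing the threshold.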

Other observations

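In genes outside the 51, some calls appeared by DESeq2 or without RC4-2B replicate 2. Without that library, edgeR called 4 of 35 other histone methylation genes higher and 3 lower, against 12.5% of all tested genes. It called 1 of 27 other polycomb genes and 2 of 10 other DNA methylation genes, all lower, and 0 of 16 other SWI/SNF genes. Of 9 tested genes reported as repressed by EZH2 or methylated in prostate cancer, 1 was called higher and 1 lower. Only some of these genes are named below. WDR5, a scaffold shared by the KMT2 and SET1 complexes, averaged 145.4 ± 6.02 CPM over the parental libraries and 100.8 ± 10.2 over those of the subclone (SD, n = 3 each), with a log2 fold change of -0.53 and an adjusted p of 0.060 by edgeR, 0.0062 by DESeq2 and 0.0027 by edgeR without replicate 2. RING1 was at 60.7 ± 4.47 and 42.3 ± 6.15 CPM, with a log2 fold change of -0.52 and an adjusted p of 0.098, 0.032 and 0.012 in the same fits by edgeR, DESeq2 and edgeR without replicate 2. KDM3A, a demethylase of H3 lysine 9, was at 26.2 ± 2.97 and 35.6 ± 3.08 CPM, and passed the threshold only without replicate 2 among these fits (log2 fold change 0.37, adjusted p = 0.044 by edgeR). CDH1, E-cadherin, a gene reported as repressed by EZH2, was at 693.2 ± 25.2 and 1022 ± 186 CPM, with a log2 fold change of 0.56 and an adjusted p of 0.077 by edgeR, 0.026 by DESeq2 and 0.0044 by edgeR without replicate 2. With the GC correction, WDR5 was at -0.40 and CDH1 at 0.51 (log2 fold change, adjusted p = 0.023 and 0.034 by edgeR). RING1 at -0.17 and KDM3A at 0.30 did not pass the threshold in that fit (adjusted p = 0.38 and 0.10 by edgeR).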
